A study of Mus musculus with 12 samples.

Results

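The 9 genes described here make, cut, bind or cross-link hyaluronan in the mouse heart. They are the synthases Has1, Has2 and Has3, the hyaluronidases Hyal1 and Hyal2, the matrix organizers Tnfaip6, Ptx3 and Vcan, and the receptor Cd44. They were taken by gene symbol from the 52858 genes in the expression files, and all 9 were found. The hearts came from C57BL/6J mice and from heterozygous Slit2-Tg mice, which carry a full-length human Slit2 cDNA driven by the CMV promoter and were derived from C57 × CBA F1 oocytes, and all were adult males. Each heart was perfused ex vivo on a Langendorff system with a blood-free buffer. IR hearts went through global ischemia and then reperfusion, whereas non-IR hearts were perfused throughout. There were 4 groups of 3 libraries. Those of C57BL/6J mice are called C57-non-IR and C57-IR, and those of Slit2-Tg mice Slit2-non-IR and Slit2-IR.

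Hyaluronan is a long unsulphated sugar chain of the extracellular matrix. The synthases sit in the plasma membrane, join UDP-glucuronic acid and UDP-N-acetylglucosamine, and push the growing chain out of the cell. The chain holds water, forms a coat around cells and lines the endothelium, and it accumulates in injured and inflamed tissue. TSG-6, the protein of Tnfaip6, moves heavy chains of inter-alpha-inhibitor onto hyaluronan, and PTX3 binds those heavy chains and joins the strands into a network. Versican, the product of Vcan, is a large proteoglycan that binds hyaluronan, CD44 is its main cell surface receptor, and the hyaluronidases break it down.

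Levels are given in FPKM, fragments scaled to gene length and library size, which allows a comparison between genes as well as between hearts. Each library held between 16601154 and 24841291 reads on genes, and mitochondrial genes took 19.7% to 26% of them. Within each group, the library numbered 1 stood farthest from the other two in a chi-square comparison of read counts. In Slit2-IR 1 the summed level of 6 atrial genes was 1710 FPKM, whereas it was at most 233 FPKM in any other library. That second highest value belonged to C57-IR 2. Cardiomyocyte genes summed to between 10900 and 16800 FPKM in every group, as fits the label of heart tissue. The mouse Slit2 gene was at 0.195 ± 0.0233 FPKM in C57-non-IR hearts and 0.178 ± 0.00799 FPKM in Slit2-non-IR hearts (SD, n = 3). The transgene is a human cDNA, so this mouse row does not check the genotype labels.

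Of the 9 members, 7 have an entry among the RefSeq promoters of build GRCm38.p6, and Has2 and Has3 have none. The stretches before the start sites of Has1, Tnfaip6 and Ptx3 are shown because these were the 3 members with the largest rises after IR. They were searched on both strands for TGACGTCA, the cyclic AMP response element, for TGANTCA, the AP-1 element, and for GGG and CC with any 5 bases between them, a loose form of the NF-kB element. Capitals mark a match, and each line runs 5′ to 3′ toward the start site.
Has1, chr17:17855189-17855438, minus strand: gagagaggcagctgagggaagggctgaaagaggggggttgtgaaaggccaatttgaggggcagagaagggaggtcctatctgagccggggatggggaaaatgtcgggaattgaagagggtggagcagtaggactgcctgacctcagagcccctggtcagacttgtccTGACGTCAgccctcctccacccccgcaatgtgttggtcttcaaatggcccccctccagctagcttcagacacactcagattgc
Tnfaip6, chr2:52037863-52038008, plus strand: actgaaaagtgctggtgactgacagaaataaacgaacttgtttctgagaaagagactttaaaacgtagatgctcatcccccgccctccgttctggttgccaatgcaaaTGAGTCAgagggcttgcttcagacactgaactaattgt
Ptx3, chr3:66219637-66219886, plus strand: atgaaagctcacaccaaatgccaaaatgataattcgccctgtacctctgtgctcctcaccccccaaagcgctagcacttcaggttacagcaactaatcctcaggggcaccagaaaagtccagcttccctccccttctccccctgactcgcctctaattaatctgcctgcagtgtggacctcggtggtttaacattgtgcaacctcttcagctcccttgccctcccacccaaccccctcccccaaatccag
The Has1 stretch held 1 TGACGTCA, 83 to 76 bases before the start, and 1.55% of 32851 RefSeq promoters hold this element within 250 bases before the start. Tnfaip6 held 1 TGAGTCA, 142 to 136 bases before its RefSeq start and 38 to 32 bases before the start in the expression files, a form of TGANTCA that 6.75% of the promoters hold. The stretch of Tnfaip6 is shorter than the others because the gene of the expression files starts before the RefSeq start. The Ptx3 stretch held none of the 3 elements. The loose NF-kB form matched 2 times before the RefSeq start of Hyal2, which lies inside the gene of the expression files, and 1 time each before Vcan and Cd44, but it is also found before 45.8% of all promoters. A match describes the letters and not binding.

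The 3 synthase genes lie apart in the genome, all coordinates being those of the expression files on GRCm38 (mm10). Has1 lies at chr17:17843328-17855188 on the minus strand with 5 exons in GENCODE M21, Has2 at chr15:56665627-56694539 on the minus strand with 4 exons, and Has3 at chr8:106870242-106884566 on the plus strand with 4 exons. The GENCODE M21 gene of Has1 has other coordinates than the files give, and those of the other 8 members are the same. Has1 was the synthase with the largest response. In C57-non-IR hearts its levels were 0.169, 0.576 and 0.387 FPKM, and in Slit2-non-IR hearts 0.115, 0.913 and 0.473 FPKM. After IR they were 2.82, 13.4 and 11.1 FPKM in C57-IR hearts and 15.2, 4.35 and 6.25 FPKM in Slit2-IR hearts. Every IR heart was above every non-IR heart, and the mean over both genotypes was 20.2-fold higher (0.439 against 8.85 FPKM). On the log2(FPKM + 1) scale, Has1 rose by 2.61 ± 0.35 (SE, n = 6 against 6), with an adjusted p of 0.003076 in limma's moderated test. A gene is called here when this p, adjusted over the 15240 genes tested, is under 0.05.

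Has2, the synthase that heart development depends on, followed at a lower level. It was at 0.083, 0.153 and 0.286 FPKM in C57-non-IR hearts and at 0.091, 0.205 and 0.186 FPKM in Slit2-non-IR hearts. After IR it was at 0.365, 1.36 and 0.914 FPKM in C57-IR hearts and at 1.53, 0.882 and 0.868 FPKM in Slit2-IR hearts. Again no IR heart overlapped a non-IR heart, and the mean was 5.9-fold higher. The difference in log2(FPKM + 1) was 0.74 ± 0.13 (SE), with an adjusted p of 0.008248. Has2 overlaps Has2os on the other strand, which averaged 0.162 FPKM, so reads may have been shared if strand was not used in counting. Depth limits these low levels, as the median non-IR library held 19.5 reads on Has1 and 17 on Has2, against 405.5 and 88.5 reads in IR libraries.

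Has3 did not join them. Its levels lay between 0.261 and 0.635 FPKM in the non-IR hearts and between 0.191 and 0.476 FPKM in the IR hearts. The groups overlapped, and the difference of −0.11 (95% interval −0.26 to 0.05) had an adjusted p of 0.5282. Has3 overlaps Chtf8 on the other strand, which averaged 10.3 FPKM, and whether strand was used in counting was not given in the sources used here. Summed over the 3 genes, synthase expression ran from 0.666 to 1.46 FPKM in non-IR hearts and from 3.66 to 17 FPKM in IR hearts. Has1 made up 13.7% to 62.6% of that sum without IR and 77% to 90.6% after IR. The mix of synthases thus shifted toward Has1 in every IR heart.

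**Figure D1:**
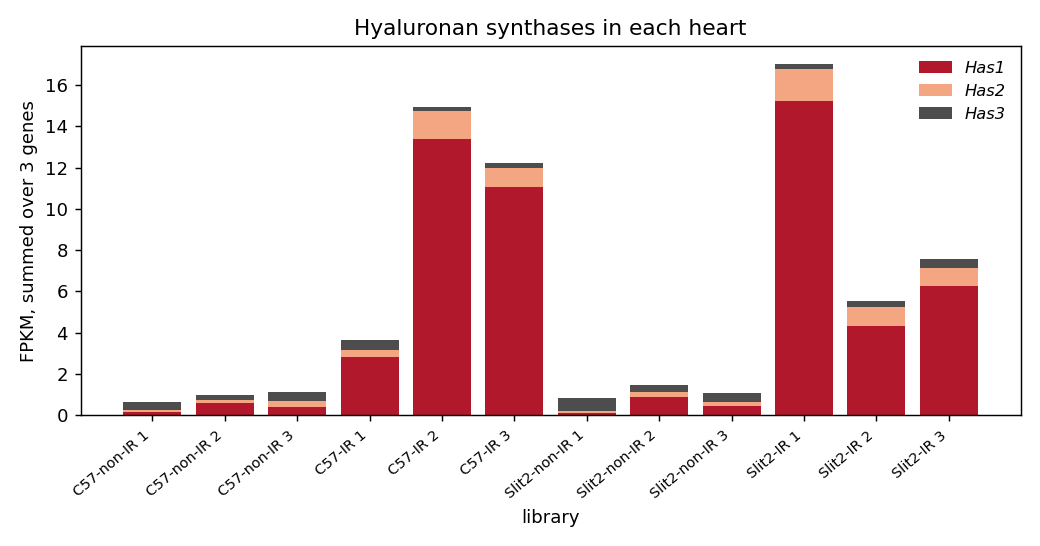
Stacked bars give the FPKM of Has1, Has2 and Has3 in each of the 12 libraries, on a linear axis. The sum stayed at or below 1.46 FPKM in the 6 non-IR hearts and reached 17 FPKM in Slit2-IR 1, and Has1 was the largest share in all 6 IR hearts.

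Tnfaip6 and Ptx3, whose products take part in the cross-linking of hyaluronan, rose, as Has1 and Has2 did. The genes of the inter-alpha-inhibitor chains were near the floor. Over all libraries Itih1, Itih2, Itih3 and Ambp averaged 0.00107, 0.234, 0.055 and 0.0128 FPKM. The other Itih genes listed, Itih4 and Itih5, were more abundant, at 0.692 and 2.04 FPKM. Protein was not measured here. Tnfaip6 lies at chr2:52038009-52056686 on the plus strand and has 6 exons. Its levels were 1.34, 1.98 and 2.16 FPKM in C57-non-IR hearts, 7.14, 45.3 and 21.4 FPKM in C57-IR hearts, 1.04, 2.69 and 3.03 FPKM in Slit2-non-IR hearts, and 32.7, 17.8 and 13.6 FPKM in Slit2-IR hearts. All IR hearts exceeded all non-IR hearts, by 11.3-fold on average. The log2(FPKM + 1) difference was 2.81 ± 0.38 (SE), with an adjusted p of 0.00321.

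Ptx3 lies at chr3:66219910-66225805 on the plus strand and has 3 exons. It was at 0.153, 0.518 and 0.689 FPKM in C57-non-IR hearts and at 0.198, 0.711 and 0.663 FPKM in Slit2-non-IR hearts. After IR it reached 2.37, 31.6 and 13.5 FPKM in C57-IR hearts and 23.2, 10.3 and 8.83 FPKM in Slit2-IR hearts. The groups did not overlap, and the 30.6-fold higher mean was the largest ratio among the 9 members. Its log2(FPKM + 1) difference was 3.12 ± 0.46 (SE), with an adjusted p of 0.004421.

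**Figure D2:**
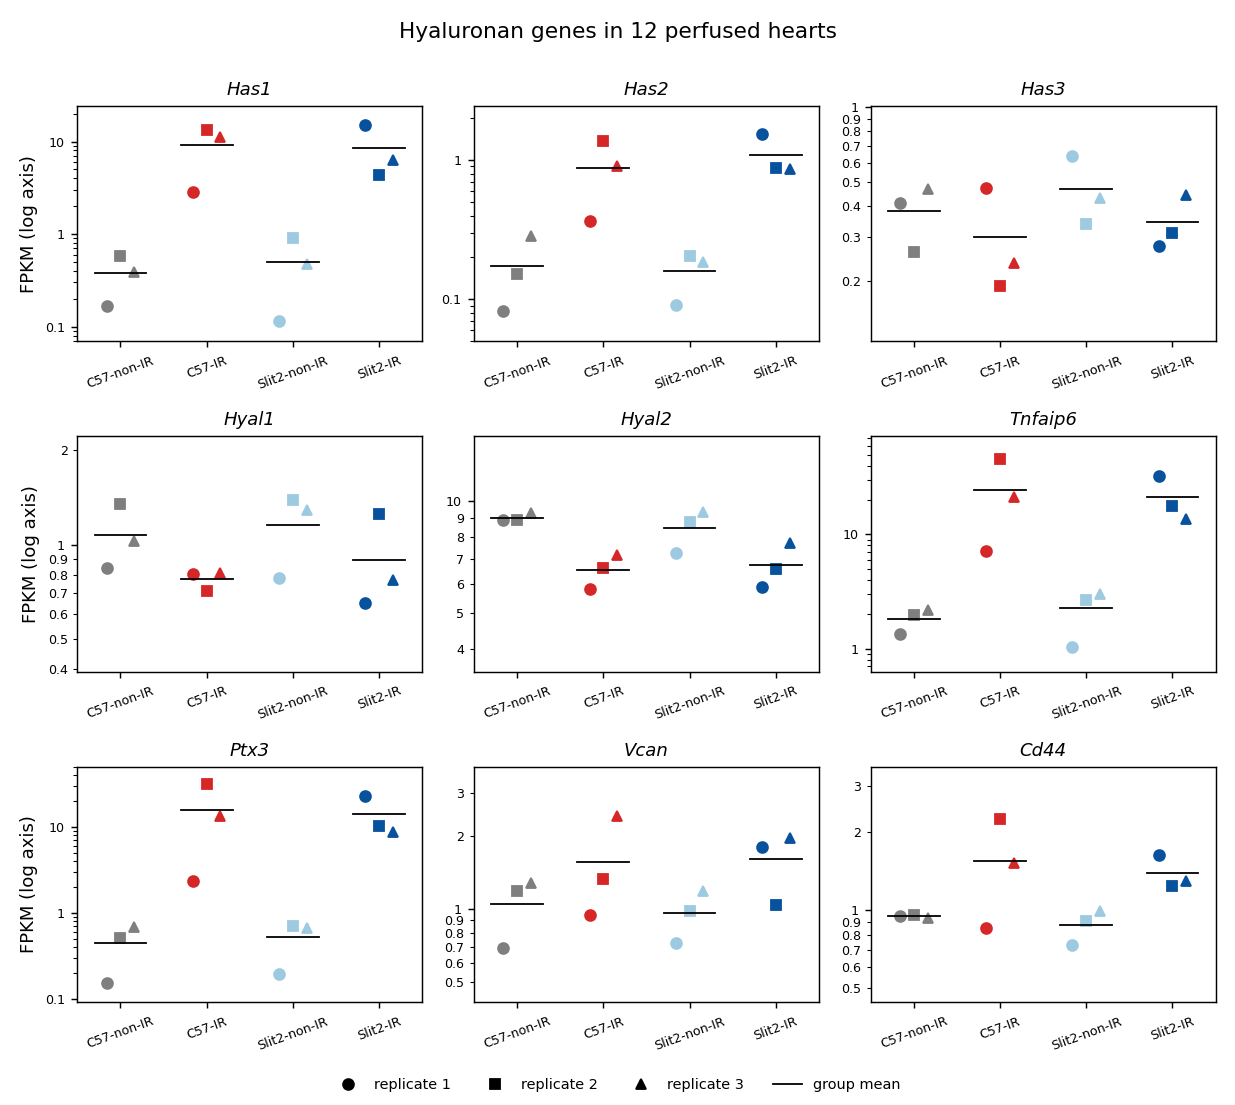
Each panel gives 1 gene in FPKM on a log axis whose range differs between panels, with a point for each heart, its shape giving the replicate number, and a line at the group mean. In Has1, Has2, Tnfaip6 and Ptx3 all 6 IR hearts lie above all 6 non-IR hearts, while the other 5 genes overlap.

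Versican and CD44 did not pass the test. Vcan, at chr13:89655312-89742509 on the minus strand with 15 exons, had levels of 0.690, 1.19 and 1.28 FPKM in C57-non-IR hearts and 0.951, 1.33 and 2.42 FPKM in C57-IR hearts. In Slit2-non-IR hearts it was at 0.727, 0.986 and 1.19 FPKM, and in Slit2-IR hearts at 1.80, 1.04 and 1.97 FPKM. Groups overlapped, and the difference of 0.34 (95% interval 0.01 to 0.67) had an unadjusted p of 0.04197 and an adjusted p of 0.2899 with limma. Cd44, at chr2:102811141-102901665 on the minus strand with 19 exons, was within 0.929 and 0.957 FPKM in the 3 C57-non-IR hearts and at 0.854, 2.24 and 1.52 FPKM in C57-IR hearts. Slit2-non-IR hearts had 0.733, 0.909 and 0.991 FPKM of Cd44 and Slit2-IR hearts had 1.64, 1.24 and 1.30 FPKM. Only C57-IR 1 kept the IR hearts from lying wholly above the non-IR hearts. The Cd44 difference was 0.35 ± 0.11 (SE), with an adjusted p of 0.1399, and without C57-IR 1 it was called (adjusted p of 0.009317).

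The hyaluronidases showed no rise. Hyal2, at chr9:107567945-107572779 on the plus strand with 5 exons, encodes the surface-anchored enzyme that cuts long chains, and it was the most highly expressed member in non-IR hearts. It was at 8.90, 8.89 and 9.32 FPKM in C57-non-IR hearts and at 5.79, 6.62 and 7.17 FPKM in C57-IR hearts. In Slit2-Tg hearts it was at 7.26, 8.81 and 9.37 FPKM without IR and at 5.89, 6.60 and 7.75 FPKM after IR, where 1 IR heart reached above the lowest non-IR heart. Over both genotypes Hyal2 fell by 0.35 on the log2(FPKM + 1) scale (SE 0.08, adjusted p of 0.04344), to a mean of 6.64 from 8.76 FPKM. This call rests close to the threshold, as it was lost in 11 of 19 alternatives, among them 9 of the 12 fits that left out 1 library (adjusted p up to 0.1863 over the alternatives). Hyal1, the lysosomal enzyme, lies beside it at chr9:107576927-107581710 on the plus strand with 4 exons. It ranged from 0.778 to 1.39 FPKM without IR and from 0.652 to 1.25 FPKM after IR, with a difference of −0.20 (95% interval −0.42 to 0.02) and an adjusted p of 0.3724. Its span overlaps Hyal3, Nat6 and Gm16343, so reads may have been shared among them.

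In all, 4 of the 9 members rose after IR over both genotypes and 1 fell, where 2.34% of the 15240 tested genes rose and 1.15% fell. All 6 IR libraries were above all 6 non-IR libraries in 4 members, against 2.23% of tested genes, and below them in 0 members, against 1.17%. The median difference over the 9 members was 0.35 on the log2(FPKM + 1) scale and 0.0036 over all tested genes. The members, and the gene lists below, were chosen with earlier results of these data known. Their counts beside those shares thus describe the lists and are no test of them. All 9 members met the filter on low reads in the non-IR libraries alone. Has1, Has2 and Ptx3 had under 10 reads in some of these, and of the 6 members with at least 10 reads in every library Hyal2 and Tnfaip6 were called. The order of levels changed too. Without IR, Hyal2 had the highest mean level (9.04 ± 0.24 FPKM in C57-non-IR hearts), followed by Tnfaip6 (1.83 ± 0.43 FPKM, SD, n = 3). In C57-IR hearts Tnfaip6 (24.6 ± 19.3 FPKM) and Ptx3 (15.8 ± 14.7 FPKM) had the highest means, then Has1 (9.09 ± 5.55 FPKM) and Hyal2 (6.53 ± 0.69 FPKM), and neighbours in this order overlapped between hearts.

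Taken by genotype, with 3 hearts against 3, fewer calls were made. In C57BL/6J hearts Has1 (difference 2.67 ± 0.49, SE, adjusted p of 0.0487) and Tnfaip6 (2.86 ± 0.53, adjusted p of 0.04934) were called higher, where 0.407% of tested genes were higher and 0.0525% lower. The values of Ptx3 (3.02 ± 0.64, adjusted p of 0.07939) and Has2 (0.65 ± 0.18, adjusted p of 0.1794) did not pass, although Ptx3 did with a pseudocount of 0.1. In Slit2-Tg hearts 0 members were called by limma, where 0.446% of tested genes were higher and 0.0787% lower. At an unadjusted p under 0.05 limma found 5 members there, beside 937 higher and 772 lower of the 15240 tested genes. There Has1 differed by 2.55 ± 0.49, Tnfaip6 by 2.75 ± 0.53, Ptx3 by 3.21 ± 0.64 and Has2 by 0.84 ± 0.18 (SE), with adjusted p-values of 0.05064, 0.05064, 0.05781 and 0.06933. With limma-voom on the recovered reads 0 members were called in either genotype, with 5 in C57BL/6J hearts and 6 in Slit2-Tg hearts at an unadjusted p under 0.05. Of all 15240 tested genes, 691 were higher and 616 lower at that level in C57BL/6J hearts, and 961 and 829 in Slit2-Tg hearts. With the replicate number as a block, Tnfaip6 (adjusted p of 0.04142) and Ptx3 (0.04991) were called in Slit2-Tg hearts. The number of calls within 1 genotype thus changed with the setting, while the differences themselves were of similar size in both genotypes.

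The next question was whether the Slit2 transgene altered these genes. Without IR, differences between Slit2-Tg and C57BL/6J hearts ran from −0.09 to 0.15 over the 9 members on the log2(FPKM + 1) scale. After IR they ran from −0.05 to 0.25, the latter for Ptx3. No member was called in either comparison, where 0.0394% and 0.0459% of tested genes were called. At an unadjusted p under 0.05 limma found 0 members in either. It found 216 higher and 270 lower of 15240 tested genes without IR, and 272 and 210 after IR. The same counts of 0 members were found with limma-voom. Means after IR were close for Has1 (9.09 ± 5.55 FPKM in C57-IR against 8.61 ± 5.81 FPKM in Slit2-IR hearts), Tnfaip6 (24.6 ± 19.3 against 21.4 ± 10.1 FPKM) and Ptx3 (15.8 ± 14.7 against 14.1 ± 7.88 FPKM). Tnfaip6 and Ptx3 thus had lower mean FPKM in Slit2-IR hearts, although their log2(FPKM + 1) differences (0.04 and 0.25) were above 0. For all 9 members the 2 IR groups overlapped.

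These comparisons were imprecise for the inducible members. The 95% interval of the Slit2-Tg difference after IR was −1.11 to 1.05 for Has1, −1.12 to 1.21 for Tnfaip6 and −1.16 to 1.67 for Ptx3. Single hearts set the sign. Without C57-IR 1 the difference was −0.62 for Has1, −0.62 for Tnfaip6 and −0.64 for Ptx3, and without C57-IR 2 it was 0.34, 0.64 and 0.99. The interval was narrower for Has2 (−0.21 to 0.57), Cd44 (−0.41 to 0.30), Hyal1 (−0.23 to 0.39), Hyal2 (−0.22 to 0.30) and Has3 (−0.17 to 0.27), and between −0.42 and 0.51 for Vcan. The log2(FPKM + 1) scale compresses differences at low levels, as for Has2 and Has3 (means of 0.881 and 0.301 FPKM in C57-IR hearts). Their narrower intervals thus do not bound a fold change tightly. The interaction of Slit2 and IR, which asks whether IR acted differently in the 2 genotypes, was −0.13 for Has1 (95% interval −1.65 to 1.40), −0.11 for Tnfaip6 (−1.76 to 1.54), 0.18 for Ptx3 (−1.82 to 2.19) and 0.19 for Has2 (−0.36 to 0.74). No member was called for it, and 0% of tested genes were. With limma and with limma-voom, 0 members had an unadjusted p under 0.05. Of the 15240 tested genes, 164 were higher and 120 lower at that level with limma.

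**Figure D3:**
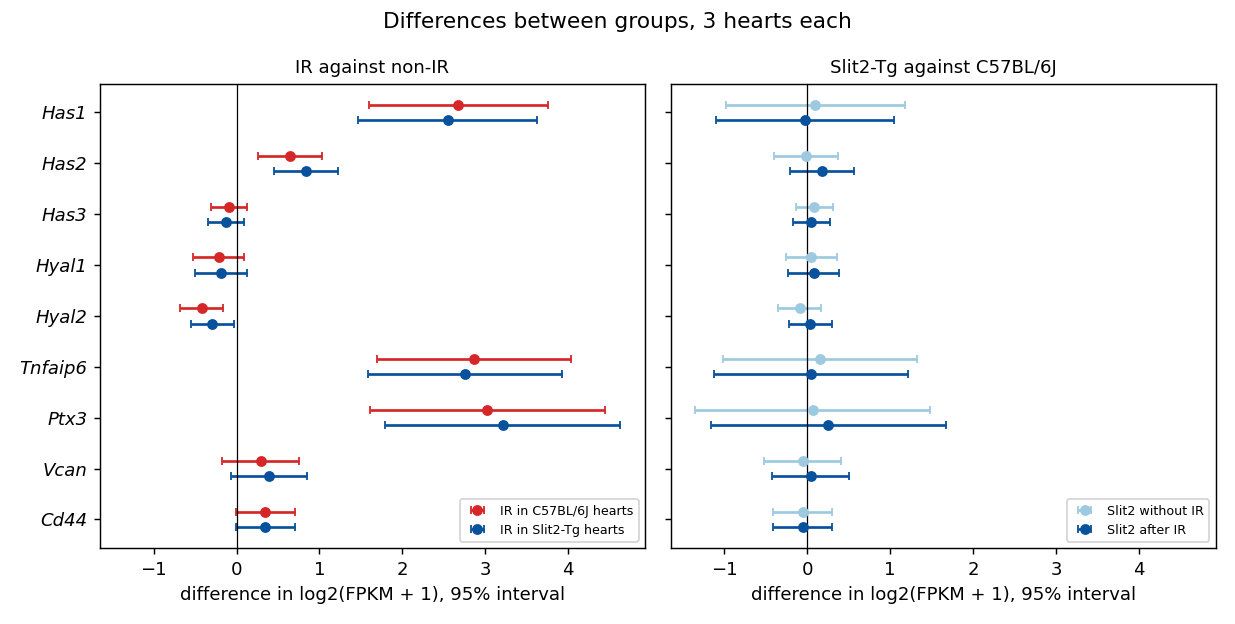
Points give the difference in log2(FPKM + 1) for each member and bars its 95% interval, with IR against non-IR on the left and Slit2-Tg against C57BL/6J on the right. The intervals of Has1, Has2, Tnfaip6 and Ptx3 lie above 0 for IR in both genotypes, while every interval on the right spans 0.

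Within each IR group, 5 members shared the library in which they were highest. In C57-IR hearts Has1, Has2, Tnfaip6, Ptx3 and Cd44 were all highest in replicate 2 and lowest in replicate 1, with Ptx3 differing by 13.3-fold and Tnfaip6 by 6.35-fold between those hearts. In Slit2-IR hearts the same 5 genes were highest in replicate 1. The lowest there was replicate 2 for Has1 and Cd44 and replicate 3 for Has2, Tnfaip6 and Ptx3. Has3, Hyal1, Hyal2 and Vcan were highest in other libraries. How many of all tested genes share these highest libraries was not counted. C57-IR 2 and Slit2-IR 1 were also the 2 libraries with the most RNA of the atrial genes Myl7 (108 and 1050 FPKM) and Sln (19.5 and 262 FPKM), against at most 12.5 and 1.55 FPKM elsewhere. Of the other listed atrial genes, Myl4 and Mybphl were also highest in these 2 libraries. Nppa was highest in Slit2-IR 1 (205 FPKM), but its 80.7 FPKM in C57-IR 2 lay below C57-IR 1 (97.3 FPKM) and some other libraries. Bmp10 was at most 0.0131 FPKM in any library. Leaving out both libraries, an alternative chosen after seeing the data, Has1 (difference 2.20), Has2 (0.58), Tnfaip6 (2.34) and Ptx3 (2.55) were still called higher after IR over both genotypes, with adjusted p-values of 0.006539 to 0.01888.

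Markers of other cells were followed because the tissue was whole heart, in which fewer cells of a type and less RNA per cell cannot be told apart. None of the tested genes in the lists of cardiomyocyte, fibroblast, endothelial, macrophage, neutrophil, mesothelial, atrial, smooth muscle and pericyte or blood markers was called for IR over both genotypes. All were tested but for 5 of 6 neutrophil genes, 1 of 6 atrial genes and 1 of 4 blood genes. Mesothelial genes summed to 0.872 to 4.77 FPKM without IR and to 2.05 to 5.66 FPKM after IR, and fibroblast genes to 106 to 194 and 117 to 214 FPKM. Neutrophil genes summed to 0.245 to 1.39 FPKM without IR and to 0.159 to 0.747 FPKM after IR, and Ly6g was at 0 in all libraries. Macrophage genes summed to 187 to 363 and 166 to 354 FPKM. Their part in the results was not tested.

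Genes upstream of the synthases were measured as well. Of the 7 genes listed for the making of the sugar precursors, 3 rose after IR over both genotypes and 0 fell, and the median difference of the list was 0.11. Of all tested genes, 2.34% rose and 1.15% fell. This list and those below were chosen with earlier results known, so their counts are no test of them. Ugdh, which makes UDP-glucuronic acid, went from 1.59 to 2.25 FPKM in non-IR hearts to between 3.70 and 7.58 FPKM in IR hearts (difference 1.10 ± 0.13, SE, adjusted p of 0.001988). Gfpt2, which like Gfpt1 serves the rate-limiting step of the hexosamine pathway, was at 2.72 to 5.38 FPKM and then at 8.07 to 21.2 FPKM (1.69 ± 0.22, adjusted p of 0.002556). Gfpt1 differed by 0.08 and was not called (adjusted p of 0.7635). Uap1, which makes UDP-N-acetylglucosamine, stayed between 10.7 and 11.1 FPKM in all 6 non-IR hearts and was at 14.1 to 23.6 FPKM in IR hearts (0.74 ± 0.11, adjusted p of 0.004762). Ugdh, Gfpt2 and Uap1 did not overlap between IR and non-IR hearts. The most abundant precursor gene, Ugp2, was at a mean of 91.4 FPKM without IR and 86.0 FPKM after it, and its difference of −0.09 was not called (adjusted p of 0.851).

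Of 6 listed proteases that cut versican, 2 rose and 0 fell, beside 2.34% and 1.15% of all tested genes. Adamts4 was at 0.0482 to 0.18 FPKM in non-IR hearts, on 5 to 15 reads, and at 2.84 to 12 FPKM in IR hearts (difference 2.80 ± 0.23, SE, adjusted p of 0.0003138). Only 2 non-IR libraries reached the level of 10 reads that the filter asks of 3 libraries, so Adamts4 entered the test through the IR hearts, where it is high, and its call is no independent support. Adamts1 was at 13.7 to 32.8 FPKM without IR and at 61.5 to 138 FPKM after it (1.90 ± 0.26, adjusted p of 0.003333). Adamts5, which also cuts versican, differed by 0.05 (adjusted p of 0.9098). Adamts15, named after its values were seen, had a difference of −0.28 that was not called (adjusted p of 0.1113), but it was called lower with the replicate block (0.04364) and without C57-IR 3 (0.03449). Of 7 other receptors, only Tlr2, a sensor of the innate immune system, was called, beside the same shares of all tested genes. It rose from a mean of 1.69 to 5.88 FPKM (1.29 ± 0.23, adjusted p of 0.01005). Tlr4 differed by 0.38 (limma unadjusted p of 0.02016) and was not called (adjusted p of 0.1962). The most abundant of the 7, Lyve1 and Stab1, differed by −0.24 and −0.16 and were not called.

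Among other genes of hyaluronan breakdown, 4 of 10 were tested and 0 were called by limma or limma-voom, with 0 at an unadjusted p under 0.05. Hexa, a lysosomal hexosaminidase subunit, differed by −0.08 (95% interval −0.35 to 0.19). Of 15 other binding proteins, 8 were tested and 0 were called by limma or limma-voom, with 1 at an unadjusted p under 0.05. At that level, limma found 1208 of the 15240 tested genes higher and 1214 lower for IR over both genotypes. Habp4 and Itih5, the most abundant of these, differed by 0.08 and 0.25. The median differences of the 2 lists were −0.03 and 0.08. In the comparisons of Slit2-Tg with C57BL/6J hearts and in the interaction, 0 of the 32 tested genes of these 5 lists were called by limma or limma-voom. At an unadjusted p under 0.05, limma found 1 of them without IR, 0 after IR and 0 for the interaction, and limma-voom found 1, 1 and 0. The receptor gene Stab2, on 14 to 79 reads, was higher in all Slit2-Tg hearts than in all C57BL/6J hearts of the same IR status. Its means were 0.0943 against 0.2385 FPKM without IR and 0.0868 against 0.227 FPKM after IR (limma unadjusted p of 0.07803 and 0.07596). The study listed Stab2 as changed in both comparisons. How many tested genes separate in this way was not counted.

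**Figure D4:**
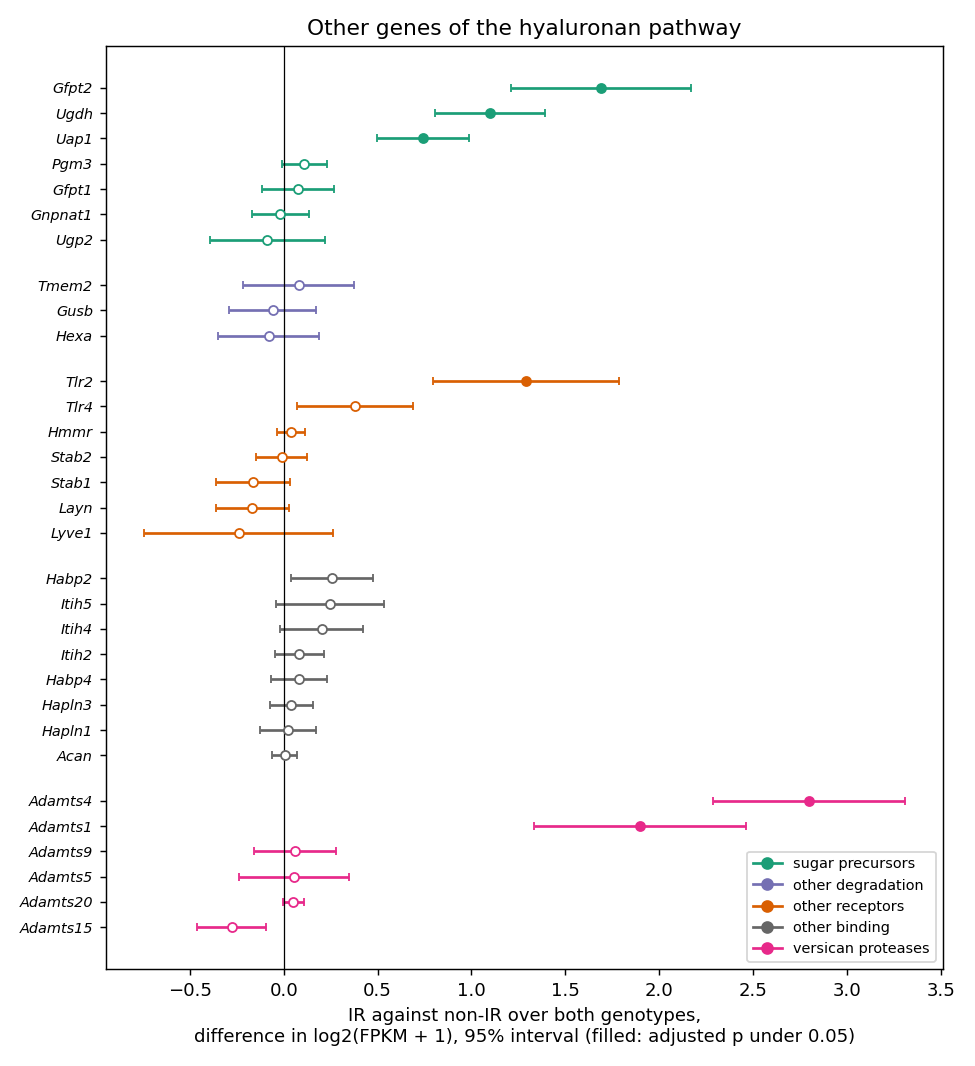
Points give the difference between IR and non-IR hearts over both genotypes in log2(FPKM + 1) and bars its 95% interval, for 31 of the 32 tested genes of 5 lists, with filled points for adjusted p-values under 0.05. The 6 filled points are Gfpt2, Ugdh, Uap1, Tlr2, Adamts4 and Adamts1, all above 0. Of these, Adamts4 entered the test through the IR hearts, where it is high.

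Genes with the most similar pattern over the 12 libraries were found by the root mean square difference between values scaled to z-scores, which is 0 for identical patterns. For Ptx3 the nearest of all tested genes was Uap1 (0.0999), followed by Tnfaip6 (0.112) and Has2 (0.146). Tnfaip6 was nearest to Ptx3 (0.112), Uap1 (0.161) and Sele (0.168), and Has2 to Ptx3 (0.146), Uap1 (0.189) and Tnfaip6 (0.21). Uap1 was thus among the 3 nearest tested genes of Ptx3, Tnfaip6 and Has2. Has1 was nearest to Nfkbie (0.164), Selp (0.171) and Ptx3 (0.19). The nearest genes of Cd44 were Il17a (0.204), Slc3a2 (0.237) and Nnmt (0.337). Distances were larger for Has3 (nearest Gm29237, 0.33, then Nfrkb and B230217O12Rik), Hyal2 (Kank3, 0.326, then Usf1 and Sft2d3), Vcan (Prss23, 0.422, then Clec11a and Loxl1) and Hyal1 (Kat6a, 0.425, then Tnfsf13 and Gm16332).

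The transcripts also differed in a feature of their 3′ ends. The pentamer ATTTA, the core of AU-rich elements that shorten the life of many mRNAs, was counted in the 3′ UTR of 1 GENCODE M21 transcript per gene. Has1 has 4 in 301 bases, a density of 13.3 per kilobase that 0.405% of 13096 tested genes reach, and Tnfaip6 has 6 in 715 bases (8.39 per kilobase, reached by 1.66%). The density was 3.33 per kilobase for Ptx3, 4.69 for Vcan, 2.01 for Cd44, 1.97 for Has2 and 0.736 for Has3, beside a median of 1.21 over the tested genes. Hyal1 and Hyal2 have 0. By count alone, 26.6% of the tested genes have at least 4 and 15.5% at least 6. Vcan, with 9, and Cd44, with 6, were not called for IR. These counts describe the annotated sequence and were not related to the changes by any test.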

How the data were processed

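Heart RNA from 12 mice was compared in 4 groups of 3 libraries, formed by genotype (C57BL/6J or Slit2-Tg) and by IR or non-IR. Genotype is stated in the labels. IR status follows the second letter of each title, matched to the methods' group names. Nothing in the labels names the animals, so p-values measure the spread between these libraries. A NEBNext Ultra kit was used for the libraries, which were sequenced on an Illumina instrument. The submitters' processing notes name HISAT2 and mm10, and the counting tool, annotation release and use of strand were not given in the sources used here. The authors deposited FPKM values for each gene and library. Multiplying FPKM by gene length gave whole steps in every library (100% of values, tolerance 0.05 reads), which followed median-of-ratios size factors. Reads behind each value were recovered from these steps. Unused per-library columns numbered 0.

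Differences were tested in limma, with moderated variances that follow a trend with level, on log2(FPKM + 1) for all 12 libraries and 4 groups with no covariate. This scale understates fold changes of low genes. A gene was tested if 3 or more libraries reached what 10 reads are worth in the median library and its total was 15 reads or more, which left 15240 genes. P-values were adjusted over these by the Benjamini-Hochberg method, with a threshold of 0.05. Members and lists were chosen with earlier results of these data known. The genes named were the 9 members, listed genes that were called or were the 2 most abundant of their list, and the 3 genes most like each member. 1 gene that this rule names is not reported here. Atrial and neutrophil marker genes, Gfpt1, Itih1, Itih2, Itih3, Itih4, Ambp, Stab2 and Tlr4 were named after their values were seen. Deviations from the group mean were correlated between same-numbered libraries in all 3 pairs for IR in Slit2-Tg hearts (0.1426 to 0.2945) and for Slit2 after IR (0.1535 to 0.362), but not in every pair elsewhere. No label states a pairing, which is drawn from these correlations alone. Alternatives were a pseudocount of 0.1, 2 other filters, a fit of only the libraries compared, a replicate block, scaling by total reads, limma-voom on recovered reads, and leaving out each library. Leaving out the 2 libraries highest in atrial genes was added after the data were seen. Calculations were also tested on simulated data. Sequences came from RefSeq and GENCODE M21. Tools were limma 3.58.1 in R 4.3.3, and numpy 2.4.6, pandas 2.3.3 and matplotlib 3.10.9 in Python 3.11.15.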

Additional observations from a re-analysis of the deposited data

How the results depend on the processing

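Over both genotypes, Has1, Has2 and Ptx3 were called higher after IR in 18 of 18 alternatives that held them and Tnfaip6 in 19 of 19. Differences on the log2 scale of each fit were 2.20 to 4.32, 0.58 to 2.51, 2.55 to 4.71 and 2.34 to 3.32. These ranges mix scales, as limma-voom used recovered reads and 1 other fit log2(FPKM + 0.1). The largest of these came from limma-voom, and with a pseudocount of 0.1 the values were 4.01, 1.97, 4.43 and 3.28. With at least 10 reads in every library 2 of 6 members were called, the others not being in the fit. Leaving out 1 library gave 4 to 5 called members. The 6 other genes of the pathway were called in every alternative that held them, and Adamts15 was also called with the replicate block and without C57-IR replicate 3. For Adamts4, which entered the test through the IR hearts, where it is high, this is no independent support. In C57BL/6J hearts 2 members were called, but 0 with no filter beyond 1 read, with only the libraries compared, with scaling by total reads, with limma-voom and without the 2 libraries highest in atrial genes, 1 with at least 10 reads in every library and 3 (Ptx3 added) with a pseudocount of 0.1. Leaving out 1 library gave 0 to 5, with 5 without C57-IR replicate 1, 1 without Slit2-IR replicate 1 or 2, and 0 without any other. In Slit2-Tg hearts 0 were called, but 4 with a pseudocount of 0.1, 1 with at least 10 reads in every library, 2 with only the libraries compared, and 0 to 4 without 1 library, with 4 without C57-IR replicate 1 or 2. With the replicate block, 3 members were called in C57BL/6J hearts (Has1, Tnfaip6 and Hyal2, adjusted p of 0.04995), 2 in Slit2-Tg hearts and 5 over both genotypes, and the block changed no other call of a member. The cause of these changes was not tested. Between genotypes and in the interaction, 0 members were called under any alternative.

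The sign of the difference of Slit2-IR from C57-IR hearts was not stable. It turned for Has1 with scaling by total reads (0.032) and, without the 2 libraries highest in atrial genes, for Vcan (−0.067) and Cd44 (0.068). Leaving out 1 library turned it for each of the 9 members. The values over those 12 fits ran from −0.62 to 0.34 for Has1, −0.037 to 0.36 for Has2, −0.0092 to 0.15 for Has3, −0.053 to 0.17 for Hyal1, −0.053 to 0.12 for Hyal2, −0.62 to 0.64 for Tnfaip6, −0.64 to 0.99 for Ptx3, −0.13 to 0.27 for Vcan and −0.26 to 0.14 for Cd44.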
